A study of Danio rerio with 12 samples.

Results

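The 3 genes bbc3 (ENSDARG00000069282), rps27l (ENSDARG00000100513) and tnfrsf1a (ENSDARG00000018569) were followed across 12 RNA libraries of whole zebrafish larvae at 3 days post-fertilization. They are 3 of the 25473 genes of the deposited count table, and all 3 passed the filter on low counts that left 19493 genes for testing. They were named by their identifiers and were selected on measured differences between these same libraries. Their levels and fold changes are therefore given as a description, without a test. There were 4 libraries of larvae homozygous for mutations of both yap and taz (yap taz mutant), 4 of larvae homozygous for the yap mutation alone (yap mutant) and 4 of wild-type larvae (WT). The library titles call the mutants YapKO and YapTazKO. Beyond that, the sources used here give neither the kind of mutation nor the strain nor the number of larvae per library. Nothing in them states that the 4 libraries of a genotype came from separate clutches, so that p-values cover the spread among libraries only, which may be technical.

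Yap and Taz are transcriptional co-activators that the Hippo kinase pathway restrains. The p53 protein is a transcription factor that damage and other stresses stabilize, and its target genes can arrest the cell cycle, repair DNA or start apoptosis, while its target mdm2 encodes the ligase that degrades it. The gene bbc3 encodes Puma, a BH3-only protein that neutralizes the inhibitors of the BCL-2 family and thereby frees the pore-forming proteins of the mitochondrial outer membrane. The gene rps27l encodes a ribosomal protein close in sequence to Rps27, and in human cells it is a target of p53. The gene tnfrsf1a encodes the receptor through which tumour necrosis factor (TNF) can either activate the transcription factor NF-kB or lead to caspase activation. The 3 genes are thus tied to p53 or to cell death, by different routes.

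Total counts were 7028251 to 8657381 per library, and levels are given as CPM, in which the library size and its TMM factor set the scale. The limit set by a count of 0, taken as 3 counts per library, was 0.334 to 0.443 CPM and covers counting error only. YAP1 (ENSDARG00000068401), the targeted gene of both mutants, had 69.9 ± 3.91 CPM in the yap taz mutant and 59.9 ± 7.62 CPM in the yap mutant, against 88.4 ± 7.99 CPM in WT (SD, n = 4 each). WWTR1 (ENSDARG00000067719), which encodes Taz, had 5.56 ± 0.886, 10.4 ± 1.17 and 7.03 ± 1.33 CPM in the yap taz mutant, the yap mutant and WT. For this gene the yap taz mutant (4.48 to 6.61 CPM) overlapped WT (5.4 to 8.34 CPM). The yap mutant, at 9.22 to 11.4 CPM, lay above both. On the first principal component the 4 yap mutant libraries were spread most widely, from -16 in yap mutant 3 to 21.2 in yap mutant 4, between the yap taz mutant libraries (31.2 to 39.6) and the WT libraries (-48.6 to -27.4).

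The death effector bbc3 was the least abundant of the 3 genes. It had 20.7, 24.2, 18.5 and 21.3 CPM in yap taz mutant libraries 1 to 4, 14.9, 13.3, 8.71 and 11.7 CPM in the yap mutant libraries, and 9.79, 10.3, 8.10 and 8.87 CPM in the WT libraries. All 4 yap taz mutant libraries lay above all libraries of the other genotypes, whereas the yap mutant overlapped WT, since yap mutant 3 lay within the WT range and the other 3 above it. The means were 21.2 ± 2.35 CPM in the yap taz mutant, 12.2 ± 2.65 CPM in the yap mutant, and for WT 9.26 ± 0.963 CPM (SD, n = 4 each). The log2 fold change of bbc3 was 1.19 ± 0.15 (SE) for the yap taz mutant over WT, 0.39 ± 0.16 for the yap mutant over WT and 0.80 ± 0.15 for the yap taz mutant over the yap mutant. Linear folds were 2.29, 1.31 and 1.74 in that order. The order of the levels was thus yap taz mutant, yap mutant, WT, of which the yap mutant and WT did not separate.

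The p53 target and ribosomal protein gene rps27l was the most abundant of the 3. Libraries 1 to 4 of the yap taz mutant had 66, 90.3, 81.8 and 98.9 CPM, those of the yap mutant 57.4, 47.1, 47.2 and 59.6 CPM, and those of WT 38.4, 37.5, 43.8 and 42.2 CPM. No genotype overlapped another, and the gap between the lowest yap mutant library and the highest WT library was 3.38 CPM. The means were 84.2 ± 14.1 CPM in the yap taz mutant, 52.9 ± 6.6 CPM in the yap mutant, and for WT 40.5 ± 3 CPM. The log2 fold change of rps27l was 1.06 ± 0.12 for the yap taz mutant over WT, 0.38 ± 0.12 for the yap mutant over WT and 0.67 ± 0.12 for the yap taz mutant over the yap mutant, or folds of 2.08, 1.31 and 1.59. The difference from WT in the yap mutant was therefore of the same size for rps27l as for bbc3.

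The receptor gene tnfrsf1a differed from the other two genes in where the step between genotypes lay. It had 53.9, 56.2, 41.4 and 54.8 CPM in yap taz mutant libraries 1 to 4 and 51.4, 42.6, 39.3 and 57.7 CPM in the yap mutant libraries, against 23.5, 20.5, 21.1 and 19 CPM in the WT libraries. Both mutants lay wholly above WT and overlapped each other, with the highest value of all in yap mutant 4. The means were 51.6 ± 6.86 CPM in the yap taz mutant, 47.8 ± 8.39 CPM in the yap mutant, and for WT 21 ± 1.86 CPM. The log2 fold change of tnfrsf1a was 1.30 ± 0.13 for the yap taz mutant over WT and 1.18 ± 0.13 for the yap mutant over WT, but 0.11 ± 0.12 for the yap taz mutant over the yap mutant, or folds of 2.46, 2.27 and 1.08. Its log2 fold changes over WT in the mutants, 1.30 and 1.18, thus stood beside 1.19 and 0.39 for bbc3 and 1.06 and 0.38 for rps27l.

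**Figure D1:**
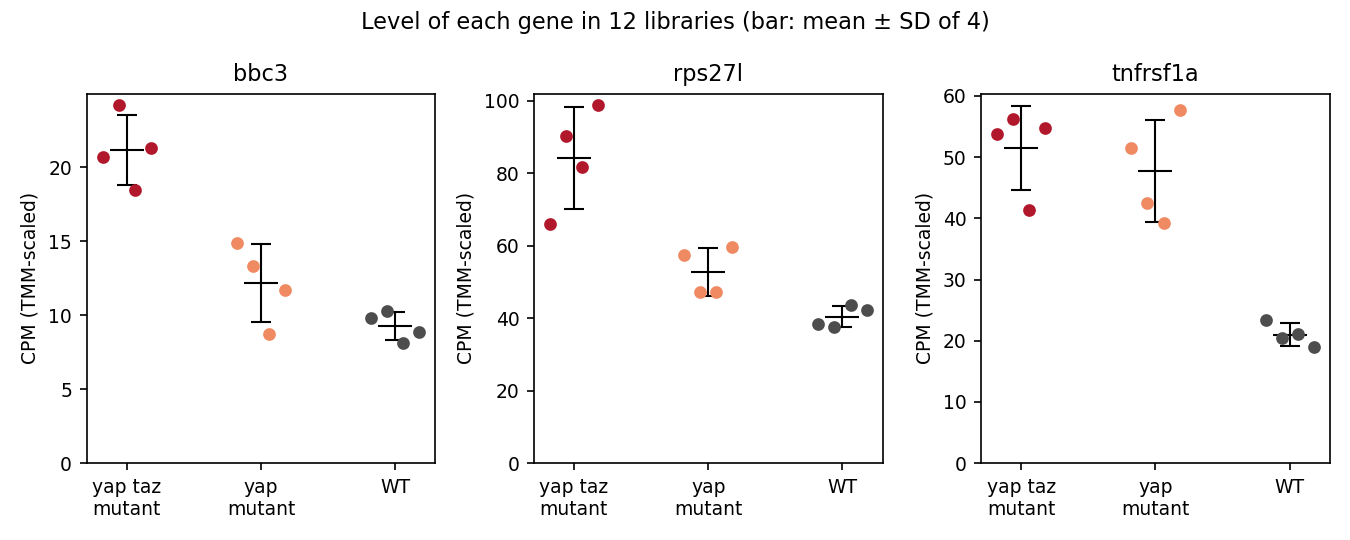
Level of bbc3, rps27l and tnfrsf1a in CPM in each of the 12 libraries (points) of the yap taz mutant, the yap mutant and WT, with the mean and SD of 4 libraries as bars. For bbc3 and rps27l the yap taz mutant stands above both other genotypes, and for tnfrsf1a both mutants stand together at means of 51.6 and 47.8 CPM above the WT mean of 21 CPM.

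Across all genes tested, libraries of the yap taz mutant lay wholly above those of WT for 14.5% of genes, and this held for 3 of the 3 genes. Yap mutant libraries lay wholly above WT for 7.93% of genes and for 2 of the 3, rps27l and tnfrsf1a. Yap taz mutant libraries lay wholly above those of the yap mutant for 5.28% of genes and for 2 of the 3, bbc3 and rps27l. Because the genes were selected on such values, nothing is read from these counts. By mean log2 CPM, 46.3% of the genes tested lay below bbc3 (3.75), 84.5% below rps27l (5.82) and 75.6% below tnfrsf1a (5.22), a comparison that is not corrected for transcript length.

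The spread within genotypes differed between the genes and was wider in the mutants than counting error alone would give. Coefficients of variation of bbc3 were 11.1% in the yap taz mutant, 21.8% in the yap mutant and 10.4% in WT, where counting error by itself would give 7.92%, 10.2% and 11.4%. Those of rps27l were 16.7%, 12.5% and 7.42% in the same order of genotypes, against 3.99%, 4.89% and 5.43% from counting. Those of tnfrsf1a were 13.3%, 17.6% and 8.87%, against 5.07%, 5.15% and 7.53% from counting. The widest spread of bbc3 and tnfrsf1a was thus in the yap mutant, and that of rps27l in the yap taz mutant. The order of the 4 yap mutant libraries by tnfrsf1a, highest in library 4 and then 1, 2 and 3, was also their order on the first principal component, and the part of that component in the level was not tested.

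The 3 genes were correlated more closely over all libraries than within genotypes. Over the 12 libraries the log2 CPM of bbc3 and rps27l correlated at 0.892, but their deviations from the genotype means at 0.19. For bbc3 and tnfrsf1a the values were 0.762 and 0.546, and for rps27l and tnfrsf1a 0.781 and 0.406. These are descriptions over libraries that share the 3 genotypes, and deviations can share anything that differs between libraries.

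Other genes of the p53 pathway came from lists drawn up with earlier results of these data known, from which the 3 genes were left out of every count. The test was edgeR's quasi-likelihood test, with a threshold of 0.05 on p after Benjamini-Hochberg adjustment over all genes. The target and negative regulator mdm2 (ENSDARG00000033443) rose in both mutants. It had 84.9, 108, 73.6 and 117 CPM in the yap taz mutant libraries and 72.3, 65.1, 75.3 and 73 CPM in the yap mutant libraries, against 51.2, 47.8, 54.9 and 48.8 CPM in the WT libraries. Both mutants lay wholly above WT, while the yap taz mutant overlapped the yap mutant through library 3. The log2 fold change of mdm2 was 0.92 ± 0.12 for the yap taz mutant over WT (adjusted p = 3.39e-05) and 0.50 ± 0.12 for the yap mutant over WT (adjusted p = 0.0171, and 0.0505 without WT 2). Between the mutants it was 0.42 ± 0.12 and did not pass the test (adjusted p = 0.0518).

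Of 37 other p53 target genes tested, 14 rose and 2 fell in the yap taz mutant against WT, where 13.9% of all genes were called higher and 13.8% lower. Their median log2 fold change was 0.204, beside 0.00803 over all genes. In the yap mutant against WT 7 rose and 0 fell, where 5.72% of all genes were called higher and 3.41% lower, with a median of 0.143 beside 0.00374. At an unadjusted p under 0.05 the count was 13 higher and 2 lower, and DESeq2 called 7 and 1. Leaving out WT 1 or yap mutant 1 reduced the 7 to 3, and leaving out any of WT 3, WT 4, yap mutant 2 and yap mutant 4 reduced it to 4. Between the mutants, 3 were higher and 0 lower in the yap taz mutant, where 1.92% of all genes were called higher and 2.26% lower, with a median of 0.169 beside -0.000956. At an unadjusted p under 0.05 it was 12 and 1, and DESeq2 called 5 and 0. The count of 3 was 1 without yap mutant 3 or yap taz mutant 2, 5 without yap mutant 4 and 6 without yap taz mutant 1. The comparisons with WT share their WT libraries, so that they are not independent of each other.

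The listed targets that rose encode proteins of different kinds, and p53 activity itself was not measured. SESN1 (ENSDARG00000020693), a sestrin that restrains growth signalling under stress, averaged 305 ± 27 CPM in the yap taz mutant and 234 ± 25.3 CPM in the yap mutant, against 176 ± 14.5 CPM in WT, and rose in both (log2 fold change 0.79, adjusted p = 1.45e-05, and 0.41, adjusted p = 0.0129). The related sesn2 (ENSDARG00000070012) had 16.7 ± 2.97 CPM and 12.2 ± 3.48 CPM in the same mutants, against 7.59 ± 1.22 CPM in WT (1.14, adjusted p = 0.000335, and 0.69, adjusted p = 0.0359). BTG2 (ENSDARG00000020298), an anti-proliferative gene, had 119 ± 21.5 CPM and 73.9 ± 13.2 CPM, against 50.5 ± 10.1 CPM in WT (1.23, adjusted p = 2.94e-05, and 0.55, adjusted p = 0.0381). These genes thus had intermediate means in the yap mutant, as bbc3 and rps27l did.

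GADD45A (ENSDARG00000104571), a growth arrest and DNA damage gene, had 32.6 ± 6.12 CPM in the yap taz mutant and 23.3 ± 0.963 CPM in the yap mutant, against 16.8 ± 3.16 CPM in WT (0.96, adjusted p = 0.000113, and 0.47, adjusted p = 0.0496). The other GADD45A entry (ENSDARG00000043581) had 9.44 to 17.6 CPM in the yap taz mutant and 9.09 to 12.2 CPM in the yap mutant. Both mutants overlapped its 7.12 to 11.5 CPM in WT. The polo-like kinase gene PLK2 (ENSDARG00000019130) had 42.5 ± 1.78 CPM in the yap taz mutant and 40.8 ± 2.35 CPM in the yap mutant, against 30.6 ± 1.81 CPM in WT (0.47, adjusted p = 0.000262, and 0.42, adjusted p = 0.00312). This PLK2 entry was therefore nearly level between the mutants, the pattern seen in tnfrsf1a. The other PLK2 entry (ENSDARG00000090752) had 26.3 to 28.5 CPM in the yap taz mutant and 20.5 to 24.6 CPM in the yap mutant. Both overlapped its 21.9 to 32 CPM in WT. The ubiquitin-like gene isg15 (ENSDARG00000086374), an interferon response gene that is listed here as a p53 target, was near the detection limit in WT. It had 3.63, 5.26, 7.1 and 4.32 CPM in the yap taz mutant libraries and 2.36, 1.01, 1.28 and 1.14 CPM in the yap mutant libraries, against 0.111, 0.526, 0.499 and 0.561 CPM in the WT libraries.

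Several calls in the yap mutant did not hold when libraries were left out one at a time. Against WT, its calls of isg15, sesn2, BTG2 and GADD45A were lost on leaving out 3, 6, 8 and 10 of the 12 libraries one at a time, at adjusted p = 0.0543 to 0.102, 0.0501 to 0.132, 0.0501 to 0.115 and 0.0506 to 0.125. Those of SESN1 and PLK2 held in every such fit, up to adjusted p = 0.0464 and 0.0148. Between the mutants isg15 (1.78 ± 0.31, adjusted p = 0.0041), BTG2 (0.68 ± 0.15, adjusted p = 0.0192) and SESN1 (0.38, adjusted p = 0.0269) rose in the yap taz mutant. The last 2 calls were each lost without 4 single libraries (adjusted p = 0.0516 to 0.0629 for BTG2 and 0.0558 to 0.0899 for SESN1).

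Among targets the cell cycle inhibitor gene cdkn1a (ENSDARG00000076554), singled out after its values were seen, did not pass the test in either direction. It averaged 10.1 ± 2.59 CPM in the yap taz mutant and 9.01 ± 1.6 CPM in the yap mutant, against 12.4 ± 3.03 CPM in WT (log2 fold change -0.29, adjusted p = 0.302, and -0.46, adjusted p = 0.17). Of 12 genes of the p53 family and its regulators, 3 rose and 2 fell in the yap taz mutant against WT, and 2 rose and 0 fell in the yap mutant (1 lower at an unadjusted p under 0.05 and by DESeq2). Shares over all genes were 13.9% higher and 13.8% lower in the yap taz mutant and 5.72% higher and 3.41% lower in the yap mutant, so that the 2 of 12 that fell are near the share of all genes. Besides mdm2 the genes that rose in the yap taz mutant were the p53 relatives TP73 (ENSDARG00000017953; 1.27, adjusted p = 0.0016) and TP63 (ENSDARG00000044356; 0.48, adjusted p = 0.0157, and up to 0.0534 without single libraries). TP63 is also an epidermal marker. The checkpoint kinase gene CHEK1 (ENSDARG00000104765) fell in the yap taz mutant (-1.11 ± 0.24, adjusted p = 0.00228), and so did the p53 phosphatase gene PPM1D (ENSDARG00000009273; -0.27, adjusted p = 0.039), a call lost without 7 single libraries (up to adjusted p = 0.118). The other PPM1D entry (ENSDARG00000021380) had 12.2 to 13.1 CPM in the yap taz mutant and 12.6 to 13.3 CPM in WT. The genes mdm2 and PPM1D are in the target list too, so that the counts of these lists overlap. In the yap mutant TP73 rose too (0.97, adjusted p = 0.0307), a call lost without 5 single libraries (up to adjusted p = 0.091).

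**Figure D2:**
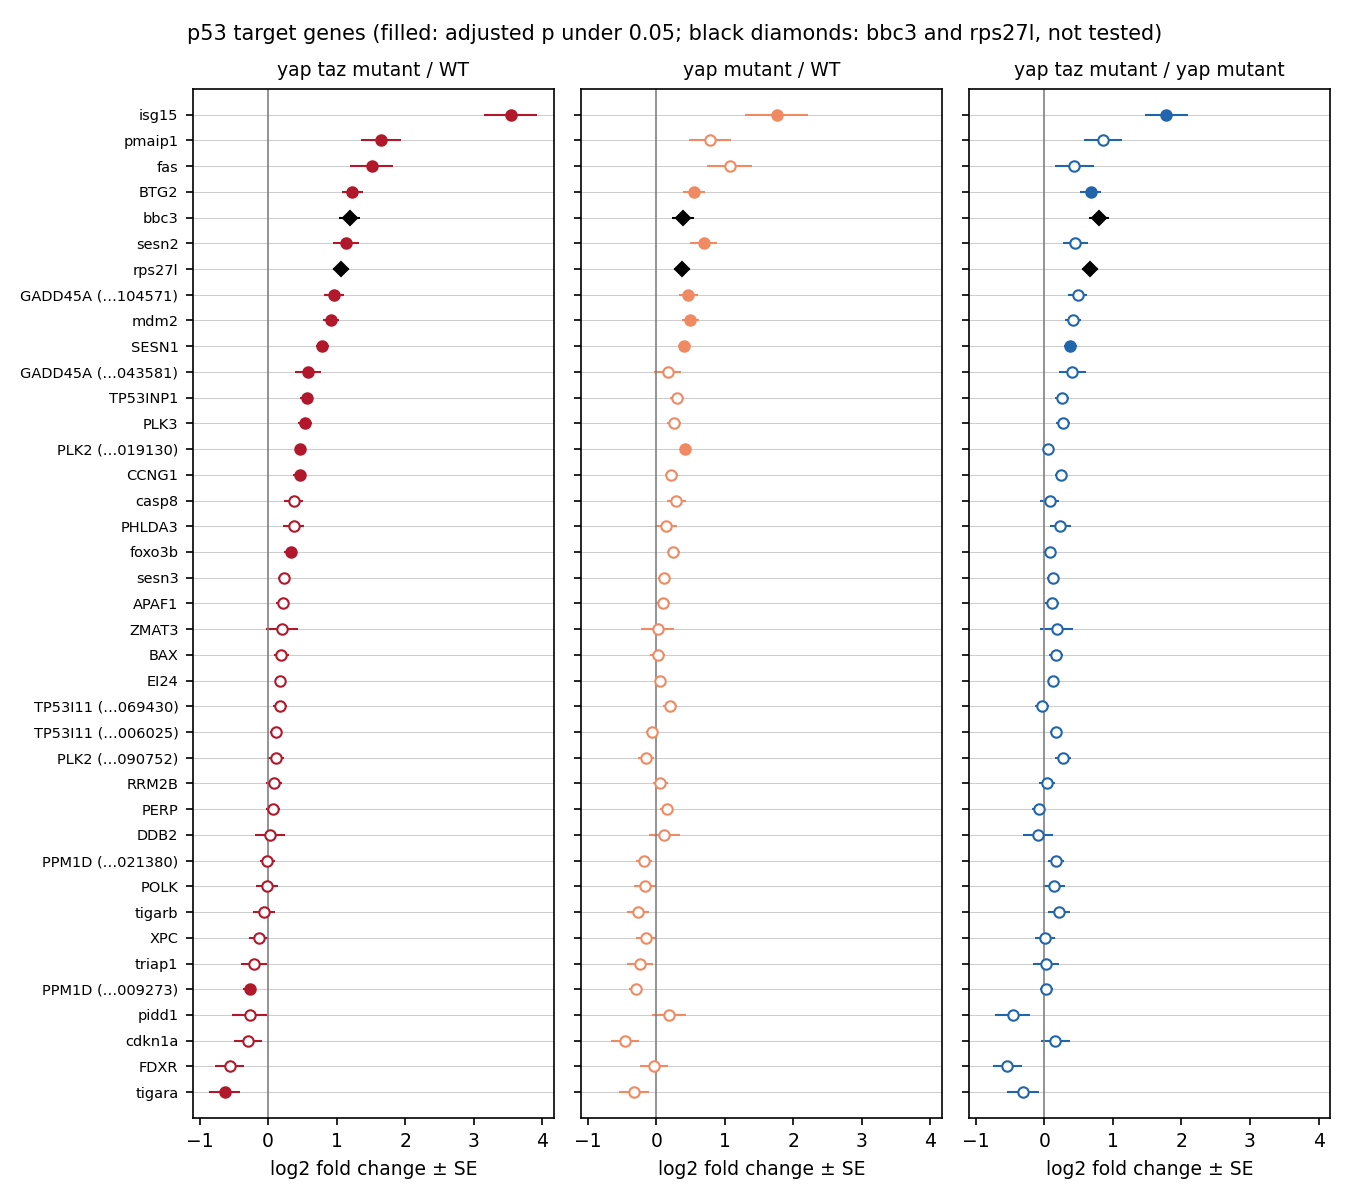
Log2 fold change ± SE of each p53 target gene for the yap taz mutant over WT, the yap mutant over WT and the yap taz mutant over the yap mutant, ordered by the first of these, with genes that share a symbol told apart by the end of their identifiers. Filled circles passed the test, and the black diamonds of bbc3 and rps27l stand among the genes with the larger folds over WT in the yap taz mutant, at 1.19 and 1.06. Since bbc3 and rps27l were selected on differences between these same libraries, nothing is read from their place.

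Puma acts by binding inhibitors of apoptosis, and genes of these inhibitors were higher as well. Of 6 tested inhibitor genes of the BCL-2 family, 5 rose in the yap taz mutant and 3 in the yap mutant against WT, where 13.9% and 5.72% of all genes were called higher. mcl1b (ENSDARG00000008363), a short-lived inhibitor that Puma binds in mammals, had 133, 189, 162 and 176 CPM in the yap taz mutant libraries and 99, 90.9, 84.8 and 95.1 CPM in the yap mutant libraries, against 56.3, 69, 62.6 and 48.8 CPM in the WT libraries. The 3 genotypes did not overlap. The log2 fold change of mcl1b was 1.48 ± 0.12 for the yap taz mutant over WT (adjusted p = 2.29e-07), 0.65 ± 0.12 for the yap mutant over WT (adjusted p = 0.0025) and 0.84 ± 0.11 between the mutants (adjusted p = 0.000901).

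Its paralogue mcl1a (ENSDARG00000009779) averaged 144 ± 16.7 CPM in the yap taz mutant and 109 ± 11 CPM in the yap mutant, against 63.5 ± 11.2 CPM in WT (1.18, adjusted p = 3.26e-06, and 0.78, adjusted p = 0.000701). BCL2L1 (ENSDARG00000008434), the inhibitor Bcl-xL, rose by less, with log2 fold changes of 0.43 (adjusted p = 0.000566) and 0.32 (adjusted p = 0.0149, and 0.0536 without yap mutant 4). bcl2l10 (ENSDARG00000026766), a further inhibitor of the family, rose in the yap taz mutant (0.51, adjusted p = 0.000442), while its difference in the yap mutant did not pass the test (0.20, adjusted p = 0.159).

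Among the activators, 3 of 7 other BH3-only genes tested rose in the yap taz mutant against WT and 0 in the yap mutant, where 1 was higher at an unadjusted p under 0.05 and 0 by DESeq2. At 5.72% of all genes called higher in the yap mutant, a count of 0 among 7 is not set apart from the other genes, and in the yap taz mutant the share was 13.9%. The one with the smallest p was pmaip1 (ENSDARG00000089307), which encodes Noxa, like Puma a BH3-only p53 target. It had 6.05, 19.7, 9.46 and 10.5 CPM in the yap taz mutant libraries and 5.47, 5.96, 6.91 and 6.74 CPM in the yap mutant libraries, against 2.89, 4.34, 4.36 and 3.03 CPM in the WT libraries. The mutants overlapped each other and lay wholly above WT. The log2 fold change of pmaip1 was 1.65 ± 0.29 for the yap taz mutant over WT (adjusted p = 0.000566) and 0.78 ± 0.31 for the yap mutant over WT (adjusted p = 0.122, and 0.0411 with the replicate number as a block).

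Next came the caspase genes, of which casp8 is also listed with the TNF receptor complex. Of 3 tested initiator caspase genes 1 rose in each mutant against WT. The initiator caspase gene CASP9 (ENSDARG00000004325), which the apoptosome activates, averaged 19.3 ± 0.922 CPM in the yap taz mutant and 15.7 ± 2.31 CPM in the yap mutant, against 10.8 ± 1.17 CPM in WT, and rose in both (0.84, adjusted p = 0.000117, and 0.54, adjusted p = 0.0138). The others did not pass the test, casp8 (ENSDARG00000058325) at 0.37 (adjusted p = 0.061) and 0.29 (adjusted p = 0.203) and CASP2 (ENSDARG00000062052) at 0.16 (adjusted p = 0.383) and 0.07 (adjusted p = 0.77). Of 4 tested effector caspase genes 0 were called in either mutant against WT, by edgeR or by DESeq2, with median log2 fold changes of -0.12 in the yap taz mutant and -0.135 in the yap mutant. At an unadjusted p under 0.05 the counts were 1 lower in the yap taz mutant and 0 in the yap mutant. Of 3 tested pore-former genes 0 were called in either mutant by edgeR or by DESeq2, and 1 was higher in the yap mutant at an unadjusted p under 0.05. Over the whole apoptosis list of 30 tested genes, 11 rose and 1 fell in the yap taz mutant, 4 rose and 0 fell in the yap mutant (1 lower at an unadjusted p under 0.05 and by DESeq2), and 1 rose and 0 fell between the mutants. The medians were 0.195, 0.0867 and 0.131 in that order, beside 0.00803, 0.00374 and -0.000956 over all genes. Of all genes 13.9% were called higher and 13.8% lower in the first comparison, 5.72% and 3.41% in the second, and 1.92% and 2.26% in the third, to which 1 of 30 is close. Between the mutants the 1 gene called was 3 without WT 2 and by DESeq2, and 2 without any 1 of yap mutant 3, yap mutant 4, yap taz mutant 1 and yap taz mutant 3. Genes called higher in the list thus included both inhibitors and activators, and RNA levels do not measure how many cells died. The list shares BAX, pmaip1, APAF1 and casp8 with the p53 targets, and casp8, cflara and FADD with the TNF list. Counts of these lists are therefore not independent of each other.

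The TNF pathway around tnfrsf1a comprises ligands, receptors, the receptor complex with its kinases, NF-kB subunits and feedback inhibitors. Of 32 genes tested besides tnfrsf1a, 11 rose and 0 fell in the yap taz mutant against WT, with a median log2 fold change of 0.325 beside 0.00803 over all genes, of which 13.9% were called higher and 13.8% lower. Among the 32, 1 was lower at an unadjusted p under 0.05 and DESeq2 called 10 higher and 0 lower. The count of 11 was 7 without yap taz mutant 4. In the yap mutant against WT 3 rose and 0 fell, with a median of 0.2 beside 0.00374, a count near the 5.72% of all genes called higher, and with the replicate number as a block 5 were called. Between the mutants 0 of 32 were called by edgeR, with a median of 0.0929 and 1.92% of all genes called higher, while 9 were higher at an unadjusted p under 0.05 and DESeq2 called 1. Without WT 2, WT 3 or yap mutant 4, edgeR called 1 there too.

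Counts of the ligand genes were low. tnfa (ENSDARG00000009511) had no count in any of the 12 libraries, which by counting error alone allows at most 0.334 to 0.443 CPM. Since the annotation and strand setting of the counts are not given, whether reads of tnfa could be assigned to it is not known. tnfb (ENSDARG00000013598) had 3.03, 3.42, 2.22 and 2.02 CPM in the yap taz mutant libraries and 0.87, 1.65, 1.02 and 2.29 CPM in the yap mutant libraries, against 1.22, 1.71, 0.499 and 0.449 CPM in the WT libraries. It rose in the yap taz mutant (1.47 ± 0.39, adjusted p = 0.0106), and its difference in the yap mutant did not pass the test (0.59 ± 0.43, adjusted p = 0.411). Between the mutants the difference of tnfb did not pass the test either (0.88 ± 0.37, adjusted p = 0.213).

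The second TNF receptor gene, tnfrsf1b (ENSDARG00000070165), averaged 6.37 ± 0.945 CPM in the yap taz mutant and 6.29 ± 2.4 CPM in the yap mutant, against 3.5 ± 2.25 CPM in WT. Its differences from WT did not pass the test (log2 fold change 0.84, adjusted p = 0.0818, and 0.82, adjusted p = 0.148, the last being 0.0451 with the replicate block). The WT libraries ranged from 1.75 to 6.63 CPM and overlapped both mutants. Both receptor genes thus had means close to each other in the mutants, and of the pair tnfrsf1a lay above WT without overlap.

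Below the receptor, TAB1 (ENSDARG00000036613), a partner of the kinase that links the receptor complex to NF-kB, averaged 22.3 ± 2.38 CPM in the yap taz mutant and 21.7 ± 0.932 CPM in the yap mutant, against 15.2 ± 1.93 CPM in WT (0.55, adjusted p = 0.00148, and 0.52, adjusted p = 0.00833). The adaptor gene TRAF2 (ENSDARG00000078378) had 1.93, 2.24 and 1 CPM in the same order of genotypes (0.95, adjusted p = 0.038, and 1.17, adjusted p = 0.0296), and its calls were lost without 7 and 5 single libraries, up to adjusted p = 0.0974 and 0.121. The more abundant entry of that symbol (ENSDARG00000030173) had 19.2 to 22.3, 20.6 to 21 and 20.7 to 23.4 CPM, with overlapping genotypes. Of the 5 NF-kB subunit genes 5 rose in the yap taz mutant against WT and 0 in the yap mutant, with medians of 0.54 and 0.238. In the yap mutant 2 were higher at an unadjusted p under 0.05 and DESeq2 called 0. Of all genes 13.9% were called higher in the yap taz mutant and 5.72% in the yap mutant, so that 0 of 5 in the yap mutant is not set apart from the other genes. The 5 included nfkb2 (ENSDARG00000038687; 0.46, adjusted p = 0.00448), REL (ENSDARG00000055276; 0.54, adjusted p = 0.00503) and RELA (ENSDARG00000098696; 0.56, adjusted p = 0.015, and up to 0.0531 without single libraries).

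nfkbiaa (ENSDARG00000005481), an inhibitor of NF-kB that is itself an NF-kB target, had the smallest p of the list in the yap taz mutant. It averaged 63.3 ± 8.69 CPM in the yap taz mutant and 39.8 ± 9.36 CPM in the yap mutant, against 21.8 ± 7.77 CPM in WT. Its log2 fold changes over WT were 1.54 ± 0.20 (adjusted p = 4.28e-05) and 0.87 ± 0.21 (adjusted p = 0.0155, and 0.0565 without yap mutant 4).

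**Figure D3:**
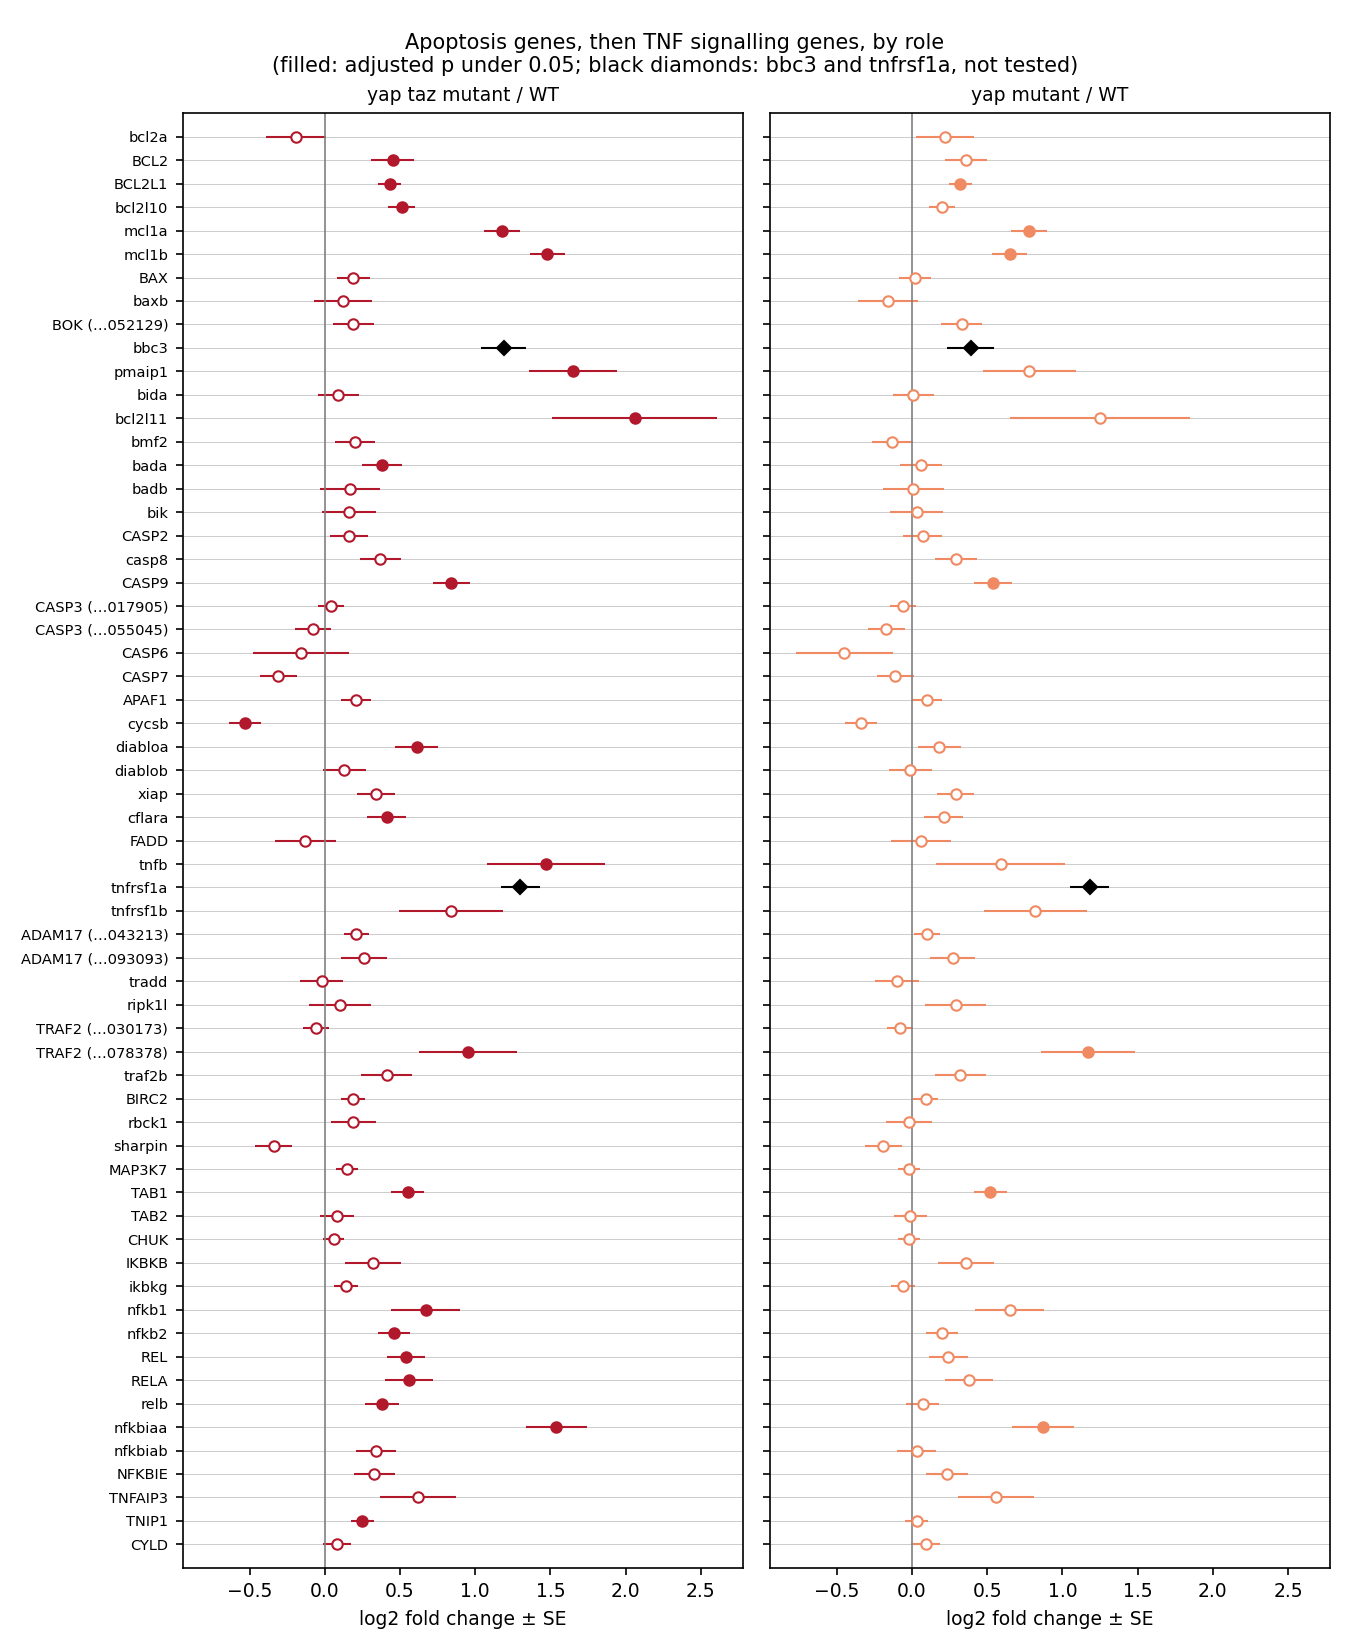
Log2 fold change ± SE over WT of apoptosis genes and then TNF signalling genes, ordered by role, for the yap taz mutant and the yap mutant, with filled circles for genes that passed the test. The black diamond of tnfrsf1a lies at 1.30 in the yap taz mutant and 1.18 in the yap mutant, whereas that of bbc3 lies at 1.19 and 0.39.

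Markers of other cells moved with the genotypes too. Of 14 tested genes of macrophages and neutrophils 11 were higher in the yap taz mutant and 8 in the yap mutant against WT, where 13.9% and 5.72% of all genes were called higher. The list matched 9 of 11 symbols, without the neutrophil gene mpx. It holds several entries each of MFAP4 and MPEG1, so that the count is not one of separate markers. The neutrophil gene lyz (ENSDARG00000057789), singled out after its values were seen, averaged 22.1 ± 5.13 CPM in the yap taz mutant and 13.6 ± 2.81 CPM in the yap mutant, against 19.8 ± 4.81 CPM in WT, and did not pass the test (0.15, adjusted p = 0.609, and -0.55, adjusted p = 0.0906). Summed over the 16 genes of that list, of which 0 were undetected in a genotype, the level was 164 to 204 CPM in the yap taz mutant, 102 to 163 CPM in the yap mutant, and for WT 78.7 to 95.5 CPM. Of 6 genes of dividing cells 6 were lower in the yap taz mutant and 5 in the yap mutant, where 13.8% and 3.41% of all genes were called lower, and their sum was 453 to 508, 505 to 714 and 741 to 870 CPM in the same order. Of 6 epidermal genes 3 were higher and 1 lower in the yap taz mutant and 2 higher in the yap mutant, with overlapping sums of 7900 to 14200, 9020 to 10800 and 6920 to 10300 CPM. The part of these cell types in the levels of bbc3, rps27l and tnfrsf1a was not tested, and in whole larvae more cells of a type and more RNA per cell cannot be told apart.

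Of 78 ribosomal protein genes tested, 2 rose and 1 fell in the yap taz mutant against WT, where 13.9% of all genes were called higher and 13.8% lower. For the yap mutant over WT, 5.72% of all genes were called higher and 3.41% lower. For the yap taz mutant over the yap mutant these shares were 1.92% and 2.26%. In both of these comparisons 0 of the 78 ribosomal protein genes were called by edgeR and by DESeq2. At an unadjusted p under 0.05, 0 of these genes passed in the former comparison and 1 in the latter. Their log2 fold changes ran from -0.22 to 0.36 for the yap taz mutant over WT and from -0.15 to 0.20 for the yap mutant over WT, beside 1.06 and 0.38 for rps27l. The closely related rps27.1 (ENSDARG00000023298) averaged 609 ± 40.2 CPM in the yap taz mutant and 595 ± 42.9 CPM in the yap mutant, against 575 ± 41.3 CPM in WT. The other, rps27.2 (ENSDARG00000055475), averaged 547 ± 22.9 and 550 ± 34.9 CPM in the same mutants, against 506 ± 50.5 CPM in WT. Neither was called (log2 fold changes 0.05 to 0.12, adjusted p = 0.309 to 0.741).

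How the counting divided reads shared by such close relatives is not known, which leaves the level of rps27l uncertain. The 3 ribosomal genes called were RPS12 (ENSDARG00000036875; 0.36, adjusted p = 0.0265), rplp2 (ENSDARG00000101406; 0.28, adjusted p = 0.0367) and RPL12 (ENSDARG00000006691; -0.22, adjusted p = 0.0466). Their count fell to 1 without WT 1, WT 2, WT 3, yap taz mutant 3 or yap taz mutant 4, and to 0 without yap taz mutant 2.

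**Figure D4:**
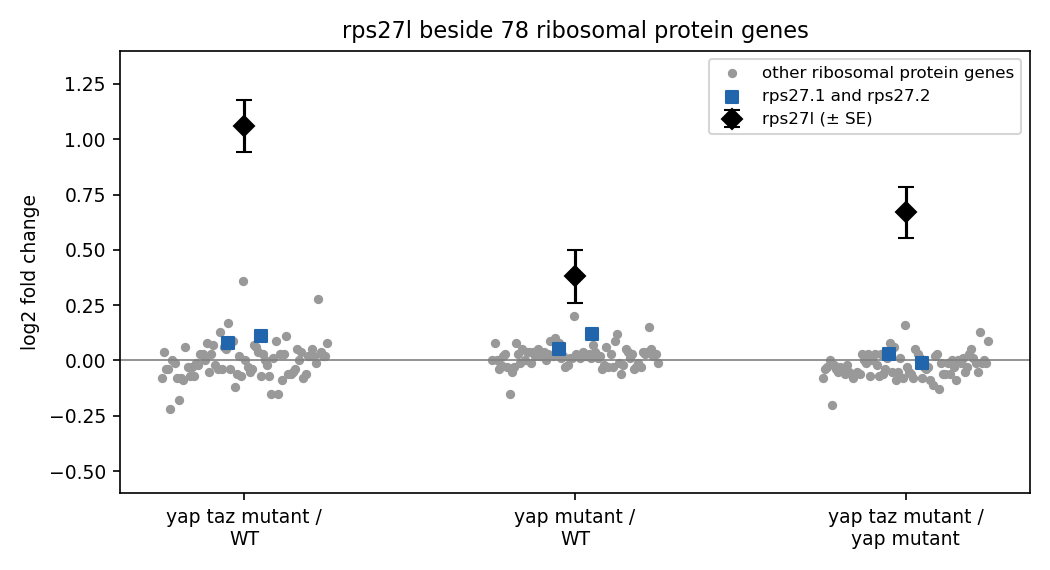
Log2 fold change of 78 ribosomal protein genes (grey points, with rps27.1 and rps27.2 as blue squares) and of rps27l (black diamond ± SE) in the 3 comparisons. The ribosomal protein genes lie near 0, and rps27l, which was selected on differences between these same libraries, lies above them at 1.06, 0.38 and 0.67.

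The genes whose levels over the 12 libraries were most like each of the 3 were sought among 17450 genes, by Pearson correlation of log2 CPM. Nearest to bbc3 were XKR9 (ENSDARG00000026500), of the XK-related membrane proteins (0.972), the protease-activated receptor gene F2RL1 (ENSDARG00000077540, 0.966), the uncharacterized zgc:162608 (ENSDARG00000069375, 0.965), the mitochondrial carrier gene SLC25A38 (ENSDARG00000074533, 0.964) and the integrin gene itgae.1 (ENSDARG00000098012, 0.96). XKR9 averaged 4.52 CPM in the yap taz mutant and 2.59 CPM in the yap mutant, against 2.03 CPM in WT. By deviations from the genotype means, which leave genotype aside, CTNS (ENSDARG00000008890, 0.979), XKR9 (0.964) and PCSK6 (ENSDARG00000104574, 0.932) were nearest, so that XKR9 was near bbc3 by both measures. The measures draw on the same libraries and are not independent of each other.

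Nearest to rps27l were SLC25A25 (ENSDARG00000010572, 0.971), a mitochondrial carrier gene, CETP (ENSDARG00000030872, 0.97), a lipid transfer protein gene, BZW1 (ENSDARG00000099148, 0.969), mid1ip1a (ENSDARG00000041051, 0.967) and ODC1 (ENSDARG00000007377, 0.967), which encodes the first enzyme of polyamine synthesis. ODC1 averaged 211 CPM in the yap taz mutant and 109 CPM in the yap mutant, against 59.1 CPM in WT. By deviations the nearest were si:dkeyp-100a1.6 (ENSDARG00000092141, 0.943), TG (ENSDARG00000020084, 0.915) and DLC1 (ENSDARG00000079317, 0.903), so that no gene was among the nearest by both measures.

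Nearest to tnfrsf1a were the interleukin receptor genes il4r.1 (ENSDARG00000102583, 0.987) and il13ra1 (ENSDARG00000080020, 0.979), the interleukin gene il11a (ENSDARG00000037859, 0.985), the prostaglandin E synthase gene PTGES (ENSDARG00000020136, 0.983) and ms4a17a.7 (ENSDARG00000043796, 0.983). il4r.1 averaged 16.9 CPM in the yap taz mutant and 14.1 CPM in the yap mutant, against 6.18 CPM in WT, and PTGES 12.1 and 10.1 CPM, against 4.88 CPM in WT. il11a had 8.07 and 5.66 CPM, against 0.146 CPM in WT, where it lay below the level of 3 counts. By deviations ptpn1 (ENSDARG00000007923, 0.917), il4r.1 (0.913) and icam3 (ENSDARG00000076144, 0.903) were nearest. These are the highest of many correlations over libraries that share genotype, and they say nothing of shared function or control.

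Gene order was looked up in the GRCz12tu annotation, which need not be the build of the counts. There bbc3 lies between sae1 (ENSDARG00000010487), a subunit gene of the SUMO-activating enzyme, and rad1 (ENSDARG00000040559), a DNA damage checkpoint gene. Both neighbours fell in the yap taz mutant against WT (-0.65, adjusted p = 0.00116, and -0.44, adjusted p = 0.049), in the direction opposite to bbc3. In the yap mutant sae1 fell (-0.48, adjusted p = 0.0259) and rad1 did not pass the test (-0.23, adjusted p = 0.381). The chaperone gene dnaja (ENSDARG00000051762) beside rps27l rose in the yap mutant (0.44, adjusted p = 0.0348) and did not pass the test in the yap taz mutant (0.19, adjusted p = 0.288). The span of tnfrsf1a overlaps an unnamed protein-coding gene, and since the strand setting of the counts is not given, reads of the pair cannot be told apart.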

How the data were processed

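Polyadenylated RNA was sequenced on an Illumina HiSeq, per the labels' protocols, in 12 libraries grouped by genotype label. The authors deposited raw counts per Ensembl gene, whole numbers without normalization, made with STAR 2.3.0e and HTSeq 0.6.0 per the submitters' processing notes. The sources used here give no genome build, annotation or strand setting. Symbols came from a supplied list of names, and 3254 identifiers share a symbol with another.

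filterByExpr with a minimum count of 10 and a minimum total of 15 left 19493 of 25473 genes. After TMM scaling, edgeR 4.0.16 under R 4.3.3 fitted all 12 libraries in 1 quasi-likelihood model with a coefficient for each genotype, with two-sided tests and Benjamini-Hochberg adjustment over all genes. CPM are given ± SD and log2 fold changes ± SE. Log2 CPM used a prior count of 2. Libraries of a genotype differed by more than sampling noise (chi-square per gene 3.35 to 9.93). The procedure was tested on simulated data.

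The 3 genes and the gene lists were chosen with earlier results of these data known. List counts leave the 3 genes out. Symbols were matched by name, current name or family symbol, and 37 of 38 listed p53 targets, 34 of 36 apoptosis, 34 of 35 TNF and 77 of 83 ribosomal symbols were found. The genes named were the 3 genes, mdm2, the TNF ligands, tnfrsf1b, the rps27 paralogues, up to 6 called genes of each list and comparison by smallest p, and the genes most like each of the 3 (mean log2 CPM of at least 1). A further gene under that rule is not reported here. Neighbours come from the order of genes in RefSeq's annotation of GRCz12tu.

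The titles number libraries 1 to 4 without saying whether numbers pair them. Deviations of same-numbered WT and yap mutant libraries had correlations of 0.18, 0.306, 0.282 and 0.388, each over the pairing threshold of 0.1. Libraries with different numbers were not compared, so that these values do not establish pairing. A fit with the replicate number as a block is given where it changes a call. It covered the libraries of all genotypes, so that its values for the yap mutant against WT also rest on yap taz mutant numbers. For the yap taz mutant they were 0.166, 0.103, 0.0717 and -0.00482 with WT and -0.00323 to 0.0648 with the yap mutant. With WT, numbers 1 and 2 thus exceeded the threshold and 3 and 4 did not, while none did with the yap mutant. Since not every pair exceeded it, the yap taz mutant was not taken as paired. Alternatives were DESeq2 1.42.0 size factors, no filter, the 8 libraries of each pair of genotypes, the block, each library left out, and DESeq2's own test.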

Additional observations from a re-analysis of the deposited data

Results flagged for a closer look

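Of 168 sets of 4 libraries, 1 for each named gene and genotype, 9 held a library that stood apart by Dixon's 95% criterion (0.829), and chance flags about 1 in 20. Among the 3 genes it was tnfrsf1a in yap taz mutant 3, at 41.4 CPM, below the 53.8 to 56.2 CPM of the other 3 libraries. Without that library its log2 fold change was 1.39 over WT and 0.20 over the yap mutant. The same library was lowest for il4r.1, at 13.3 CPM, against 18 to 18.2 CPM in the others. Since il4r.1 was picked for its likeness to tnfrsf1a over these same libraries, this is no separate evidence about the library.

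Yap mutant 3 was lowest for CASP9, at 12.3 CPM against 16.5 to 17.1 CPM, and for BZW1, at 132 CPM against 145 to 146 CPM. Yap taz mutant 2 was lowest for BCL2L1, at 46.1 CPM against 50.2 to 50.9 CPM. Among WT libraries WT 1 was lowest for isg15, at 0.111 CPM, and highest for REL, at 15.1 CPM against 10.3 to 10.5 CPM, and for icam3, at 17.4 CPM. WT 2 was highest for nfkb2, at 27.8 CPM against 21.8 to 22.8 CPM.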

How the results depend on the processing

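No fold change of bbc3, rps27l or tnfrsf1a moved beyond the spread between libraries under any of the 17 alternatives run in each of the 3 comparisons, and none changed sign. For the 12 fits without 1 library this says little, since dropping 1 of 4 libraries can hardly shift a mean that far. The other alternatives kept all 4 libraries of each genotype compared, so that they could hardly shift a fold change that far either. With each library left out in turn, bbc3 ranged over 1.12 to 1.25 for the yap taz mutant over WT, 0.28 to 0.52 for the yap mutant over WT and 0.67 to 0.91 between the mutants, rps27l over 0.97 to 1.16, 0.32 to 0.44 and 0.58 to 0.77, and tnfrsf1a over 1.25 to 1.39, 1.08 to 1.26 and 0.03 to 0.22. The 1780 genes called in the yap mutant against WT were 2758 with the replicate block, 1163 from the 8 libraries of these genotypes, and 942 to 3041 without single libraries (942 without yap mutant 1, 954 without yap mutant 4, 1059 without WT 3, 1076 without WT 2 and 3041 without yap mutant 3). The 814 called between the mutants were 1443 with the block and 441 to 1087 without single libraries (441 without yap taz mutant 2, 468 without yap mutant 2, 497 without yap taz mutant 4 and 538 without yap mutant 3). p53 targets called ranged over 3 to 8 in the yap mutant against WT without single libraries, and between the mutants were 6 with the block, 5 by DESeq2's test and 1 to 6 without single libraries. Apoptosis genes called between the mutants were 4 with the block, 3 from the 8 libraries, 3 by DESeq2's test and 1 to 3 without single libraries. TNF genes called were 5 with the block in the yap mutant against WT, 7 to 13 without single libraries in the yap taz mutant against WT, and between the mutants 1 each with the block, from the 8 libraries and by DESeq2's test, and 0 to 1 without single libraries. Ribosomal genes called in the yap taz mutant against WT were 0 to 4 without single libraries. The cause of these shifts was not tested. Same-numbered libraries of the yap taz mutant did not all pass the 0.1 threshold with either other genotype and were not taken as paired. With them the block may test a shared number only, and its values for the yap taz mutant are given here alone. Low counts limit what can be said of tnfa and, in WT, of isg15 and il11a, which lay near or below the level of 3 counts.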
